A study of Mus musculus with 4 samples.

Results

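The lysosome genes examined here were 46 genes chosen by name: cathepsins and other lysosomal hydrolases, the activators and carriers of lipid breakdown, proteins of the lysosomal membrane, 3 components of the proton pump and the transcription factor Tfeb. Total RNA of mouse ES (embryonic stem) cells was hybridised to 4 expression arrays, 2 of SOCS3 null cells and 2 of wildtype cells. SOCS3 is a feedback inhibitor of cytokine receptors that signal through STAT3. The labels give no strain, clone, passage, feeder layer, culture condition or allele, and do not say whether the 2 arrays of a genotype came from separate cultures, so that each p-value reflects array-to-array spread that may be technical. Among the probe sets annotated with 1 gene alone, the brightest on average was taken for each gene. By this rule 45 of the 46 genes had a probe set and 43 passed a filter on dim probe sets, of 12732 genes tested in all. Cd63 is not analysed here, and the cathepsin genes Ctsk and Ctso lay below the filter.

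The lysosome is the acidic compartment in which cells break down proteins, glycans and lipids that arrive by endocytosis or autophagy. Its proton pump (V-ATPase) keeps the lumen acid, soluble hydrolases work inside, and heavily glycosylated membrane proteins line the wall and carry products out. Many lysosomal genes share a short promoter element (the CLEAR element, built on the palindrome CACGTG) that is bound by TFEB and its relatives of the MiT family. In the early mouse embryo the visceral endoderm takes up maternal proteins by endocytosis and is rich in lysosomes.

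Promoters are shown for 4 genes that rose in SOCS3-null cells and hold the palindrome (Lamp1, Ctsd, Ctsa and Lgmn), for 2 that hold it and did not pass the test (Mcoln1 and Cln3), and for the gene with the largest increase (Dram1) and the only one that fell (Manba), which do not hold it. Each is the 250 bases before a RefSeq gene start in assembly GRCm38.p6, 5′ to 3′ on the strand of the gene, with CACGTG in capitals. Where a gene had more than 1 start in the table, the start with a match is shown.
Lamp1, chr8:13158911-13159160, plus strand: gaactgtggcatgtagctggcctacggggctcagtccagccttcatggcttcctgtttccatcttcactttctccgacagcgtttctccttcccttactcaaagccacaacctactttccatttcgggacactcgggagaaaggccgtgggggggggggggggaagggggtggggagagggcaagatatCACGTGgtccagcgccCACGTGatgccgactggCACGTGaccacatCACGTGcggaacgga
Ctsd, chr7:142387828-142388077, minus strand: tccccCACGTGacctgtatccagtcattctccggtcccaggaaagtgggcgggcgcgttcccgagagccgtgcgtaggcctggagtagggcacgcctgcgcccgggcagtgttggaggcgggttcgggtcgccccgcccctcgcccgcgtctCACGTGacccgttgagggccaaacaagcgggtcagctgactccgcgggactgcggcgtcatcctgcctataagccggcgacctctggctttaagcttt
Ctsa, chr2:164833523-164833772, plus strand: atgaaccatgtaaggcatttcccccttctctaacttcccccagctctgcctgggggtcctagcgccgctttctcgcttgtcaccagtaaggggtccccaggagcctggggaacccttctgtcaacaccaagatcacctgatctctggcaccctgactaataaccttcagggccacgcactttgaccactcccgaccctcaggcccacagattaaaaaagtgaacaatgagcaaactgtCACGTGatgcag
Lgmn, chr12:102439093-102439342, minus strand: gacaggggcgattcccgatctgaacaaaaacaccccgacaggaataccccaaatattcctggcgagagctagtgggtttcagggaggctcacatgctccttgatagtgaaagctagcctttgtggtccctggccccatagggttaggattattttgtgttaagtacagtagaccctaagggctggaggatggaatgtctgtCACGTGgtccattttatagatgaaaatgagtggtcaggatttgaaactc
Mcoln1, chr8:3500269-3500518, plus strand: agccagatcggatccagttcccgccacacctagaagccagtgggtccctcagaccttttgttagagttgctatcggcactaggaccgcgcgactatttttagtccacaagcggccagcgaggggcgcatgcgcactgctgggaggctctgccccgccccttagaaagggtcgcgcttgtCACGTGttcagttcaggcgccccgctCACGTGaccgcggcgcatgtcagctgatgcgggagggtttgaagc
Cln3, chr7:126583237-126583486, minus strand: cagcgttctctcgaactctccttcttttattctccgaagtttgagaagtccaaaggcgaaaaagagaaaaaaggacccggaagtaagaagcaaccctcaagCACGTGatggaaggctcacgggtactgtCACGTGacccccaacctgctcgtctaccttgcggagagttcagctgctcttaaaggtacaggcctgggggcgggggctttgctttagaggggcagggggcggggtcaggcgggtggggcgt
Dram1, chr10:88357076-88357325, minus strand: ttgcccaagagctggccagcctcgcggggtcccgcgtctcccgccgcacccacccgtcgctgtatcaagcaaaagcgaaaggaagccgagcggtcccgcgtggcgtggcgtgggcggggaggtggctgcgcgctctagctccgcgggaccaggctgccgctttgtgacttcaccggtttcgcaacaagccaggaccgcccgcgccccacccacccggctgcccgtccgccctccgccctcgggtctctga
Manba, chr3:135485361-135485610, plus strand: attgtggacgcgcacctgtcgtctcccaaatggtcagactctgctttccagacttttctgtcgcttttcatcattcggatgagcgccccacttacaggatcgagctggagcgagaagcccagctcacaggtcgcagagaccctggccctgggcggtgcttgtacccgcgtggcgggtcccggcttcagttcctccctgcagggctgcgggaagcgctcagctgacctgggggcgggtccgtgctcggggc

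The Lamp1 window held 4 copies of the palindrome, whose first bases lay 61, 45, 28 and 15 bases before the start, and the Mcoln1 window held 2, at 71 and 45 bases. In Ctsd the copies lay 245 and 98 bases before the start, in Cln3 149 and 121, in Lgmn 49 and in Ctsa 12. RefSeq sequences were matched by symbol for 41 of the 46 genes. The 6 letters CACGTG, which read the same on both strands, stood in a window of 14 of these 41 genes, or 34.1%, against 6.86% of the 27025 genes in the table and 9.90% of the 10282 tested genes with a sequence. The longer palindrome TCACGTGA, which contains the shorter one, stood in 5 of the 41 genes, or 12.2%, against 0.907% of all genes in the table and 1.68% of the tested genes with a sequence. Among the lysosome genes that rose 7 of 19 with a sequence held CACGTG, and among those that did not pass the test 7 of 18 did. Of all tested genes called higher, 9.82% held it. A match describes the letters in this window only.

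Lysosome genes were mostly higher in SOCS3-null cells. Of the 43 genes tested 22 rose and 1 fell, where 13.1% of all genes tested rose and 9.55% fell, and the other 20 did not pass. The share of lysosome genes that rose was 51.2%. A gene was called at a limma adjusted p under 0.05, and changes are differences of mean log2(intensity + 16), SOCS3 null minus wildtype, with their standard error (SE). The median change of the 43 genes was 0.73, against 0.00 over all genes tested, and 37 of the 43 changes were positive, where 48.9% of all genes had a positive change. Of the 22 that rose, 17 had a log2 change of 1 or more, where 5.89% of all genes tested were called higher with such a change. A change of 2 or more was seen in 4 of the 22. Called or not, 98.52% of all genes tested and 90.7% of the lysosome genes tested had a change of at most 2. In 33 of the 43 genes both SOCS3-null arrays lay above both wildtype arrays, which held for 32.3% of all genes tested, and in 2 both lay below, which held for 33.6%. With any 1 array left out limma called 0 of all genes, so no lysosome gene either, while 22 to 28 lysosome genes, or 51.2% to 65.1%, then had a positive change with an unadjusted p under 0.05, as did 13.3% to 20.1% of all genes. In those fits the genotype with 1 array was assumed to vary like the other. In bulk RNA a change in the share of cells of a type and a change in RNA per cell cannot be told apart.

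**Figure D1:**
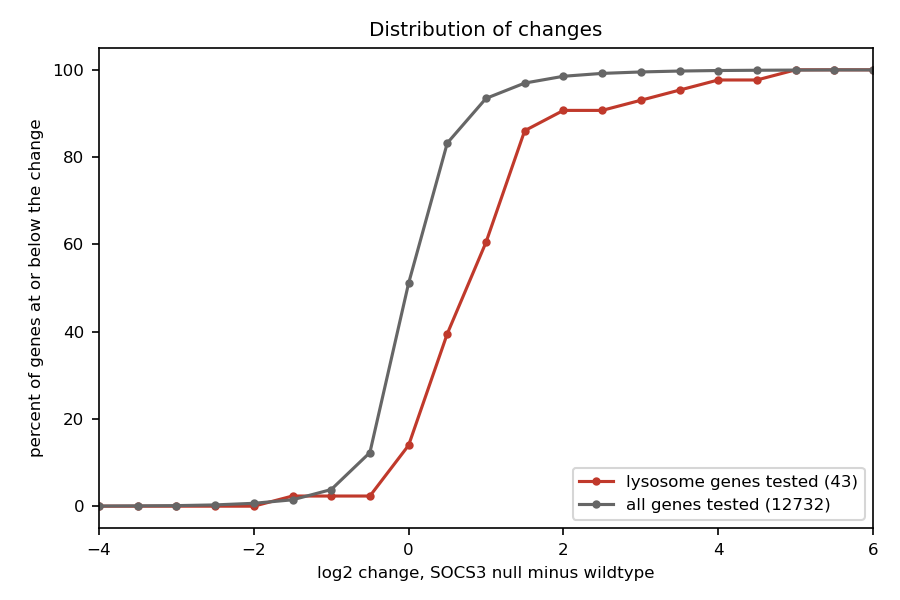
Cumulative distribution of the log2 change, SOCS3 null minus wildtype, for the 43 lysosome genes tested and for all 12732 genes tested. At a change of 0 the curve of the lysosome genes stands at 13.95% and that of all genes at 51.09%; at a change of 1 they stand at 60.47% and 93.45%.

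Other features of the arrays moved with genotype. Socs3 itself had intensities of 19.3 and 12.9 on the SOCS3-null arrays, against 3024 and 1884 on the wildtype arrays. Of 18 markers of the primitive and visceral endoderm 16 rose, or 88.9%, and none fell, where 13.1% of all genes tested rose. Hnf4a and Ttr of the visceral endoderm had changes of 0.12 and -0.02 (adjusted p = 0.513 and 0.929). Both were dim, below the array medians on every array. Hnf4a had 10.7 and 15.5 in SOCS3-null cells and 9.79 and 11.5 in wildtype cells, and Ttr had 10.1 and 10.8 against 12.3 and 9.26. Gata4, Sox17 and Foxa2 are among the 16, with wildtype log2 means of 4.71, 4.34 and 4.51, under the filter floor of 4.72. They were tested only because the SOCS3-null arrays lifted their means, so they had to differ and their calls add nothing. The summed intensity of the 18 markers was 62696 to 65716 in SOCS3-null cells and 6481 to 6839 in wildtype cells. The sum is weighted towards the brightest of these markers and says little of the dim ones. Of 10 ES cell markers 2 fell, Sox2 and Fgf4, where 9.55% of all genes tested fell. The summed intensity of the 10 was 64793 to 68355 in SOCS3-null and 80937 to 81130 in wildtype cells. All 10 changes were negative, with a median of -0.39, where 48.9% of all genes had a positive change. In 8 of the 10 both SOCS3-null arrays lay below both wildtype arrays, which held for 33.6% of all genes tested. The part of a change in cell makeup in the rise of the lysosome genes was not tested. Macrophages, which are also rich in lysosomes, were examined through 14 marker genes with a probe set, of which 11 were tested. Laptm5 rose, 10 did not pass and none fell. Of the 11 differences 10 were positive, and the summed intensity was 2339 to 2863 in SOCS3-null and 993 to 1372 in wildtype cells. Laptm5 itself encodes a lysosomal membrane protein, so its rise is not a marker signal apart from lysosomal genes. It had 1054 and 1573 in SOCS3-null cells and 397 and 327 in wildtype cells. Lyz2 had 1427 and 449 in SOCS3-null cells and 402 and 770 in wildtype cells. Its groups overlapped, and its difference of 0.51 did not pass (adjusted p = 0.635). Laptm5 and Lyz2 made up most of the summed intensity on each array, so the sum says little of the other markers. Csf1r, the receptor for a macrophage growth factor, had 55.0 and 109 in SOCS3-null cells and 15.6 and 41.2 in wildtype cells, groups that did not overlap, with a difference of 1.15 that did not pass (adjusted p = 0.143). Ptprc, Itgam and Aif1 lay below the filter, with 5.83 and 5.66 for Ptprc in SOCS3-null cells and 5.67 and 6.24 in wildtype cells, where the median of all probe sets was at least 15.8 on each array. The part of such cells in the rise of the lysosome genes was not tested. Of 10 fibroblast and feeder markers tested none passed, where 13.1% of all genes tested rose and 9.55% fell. The change was positive in 8 of the 10, or 80%, against 48.9% of all genes. In 4 of them both SOCS3-null arrays lay above both wildtype arrays, which held for 32.3% of all genes tested. Their summed intensity was 1980 to 3522 in SOCS3-null and 1821 to 2906 in wildtype cells.

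Of 11 proteases tested 9 rose and 2 did not pass, with a median change of 1.32, where 13.1% of all genes tested rose. Ctsh encodes cathepsin H, an aminopeptidase, and had intensities of 292 and 530 in SOCS3-null cells, against 15.4 and 17.2 in wildtype cells. Both wildtype values lay near the array medians, so Ctsh was dim there, and the 2 groups were far apart. The log2 change was 3.67 (SE 0.31, adjusted p = 0.00886), and it ran from 2.52 to 4.51 over the alternative settings. Lgmn encodes legumain, an endopeptidase that cuts after asparagine and processes several cathepsins. Its intensities were 2295 and 2766 in SOCS3-null cells, against 241 and 223 in wildtype cells, a change of 3.35 (SE 0.13, adjusted p = 0.00441). Ctsc, the dipeptidyl peptidase that activates granule serine proteases, stood at 2003 and 1805 in SOCS3-null cells and at 314 and 306 in wildtype cells, a change of 2.56 (SE 0.09, adjusted p = 0.00441). All SOCS3-null values of these 3 genes lay above all wildtype values.

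Ctsl encodes cathepsin L, a cysteine endopeptidase of broad specificity. It measured 13656 and 12816 in SOCS3-null cells, against 3245 and 3479 in wildtype cells, a fold of 3.94 on the linear scale and a log2 change of 1.97 (SE 0.09, adjusted p = 0.00477). The arrays of a genotype lay close together and the genotypes did not overlap. The remaining proteases that rose were Ctsb, Ctsa, Ctsz, Ctsd and Tpp1, with changes of 0.84 to 1.38. Ctsb, cathepsin B, had 2767 and 2622 in SOCS3-null cells and 890 and 1172 in wildtype cells. Ctsd, the aspartic protease cathepsin D, had 2514 and 2163 in SOCS3-null cells and 918 and 1240 in wildtype cells, a change of 1.12 (SE 0.19, adjusted p = 0.0292). Without the filter on dim probe sets Ctsb and Ctsd lost their calls, with adjusted p of 0.0504 and 0.087. Ctsz, the carboxypeptidase cathepsin Z, had 5062 and 5387 in SOCS3-null cells and 2119 and 2199 in wildtype cells. Tpp1, which removes tripeptides from the ends of proteins, rose by 0.84 (SE 0.10, adjusted p = 0.016).

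Cathepsins S and F did not pass. Ctss, a cathepsin prominent in antigen-presenting cells, had 51.5 and 35.9 in SOCS3-null cells and 44.6 and 55.2 in wildtype cells, and the groups overlapped. Its change was -0.15 with a 95% interval of -0.64 to 0.35. For Ctsf the values were 53.2 and 36.6 in SOCS3-null cells and 53.2 and 57.7 in wildtype cells, with a change of -0.24 and an interval of -0.70 to 0.22. Ctsk, the cathepsin of osteoclasts, had 10.7 and 7.06 in SOCS3-null cells and 6.58 and 10.8 in wildtype cells, below the array medians on every array. Ctso had 7.87 and 5.80 in SOCS3-null cells and 5.85 and 5.43 in wildtype cells, also below them. The 8 cathepsins of the rodent placenta with a probe set, among them Ctsj, Ctsm and Ctsq, were all below the filter. Protease inhibitors of the cystatin and serpin families, not all of them inhibitors of lysosomal cathepsins, were measured too. Of 4 tested Cst3 (cystatin C), Cstb (cystatin B) and the serpin Serpinb6a rose by 1.63, 1.38 and 0.98, where 13.1% of all genes tested rose. Serpinb9 was dim, with 14.1 and 11.9 in SOCS3-null cells and 11.8 and 13.9 in wildtype cells. Its difference of 0.01 did not pass (adjusted p = 0.969).

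**Figure D2:**
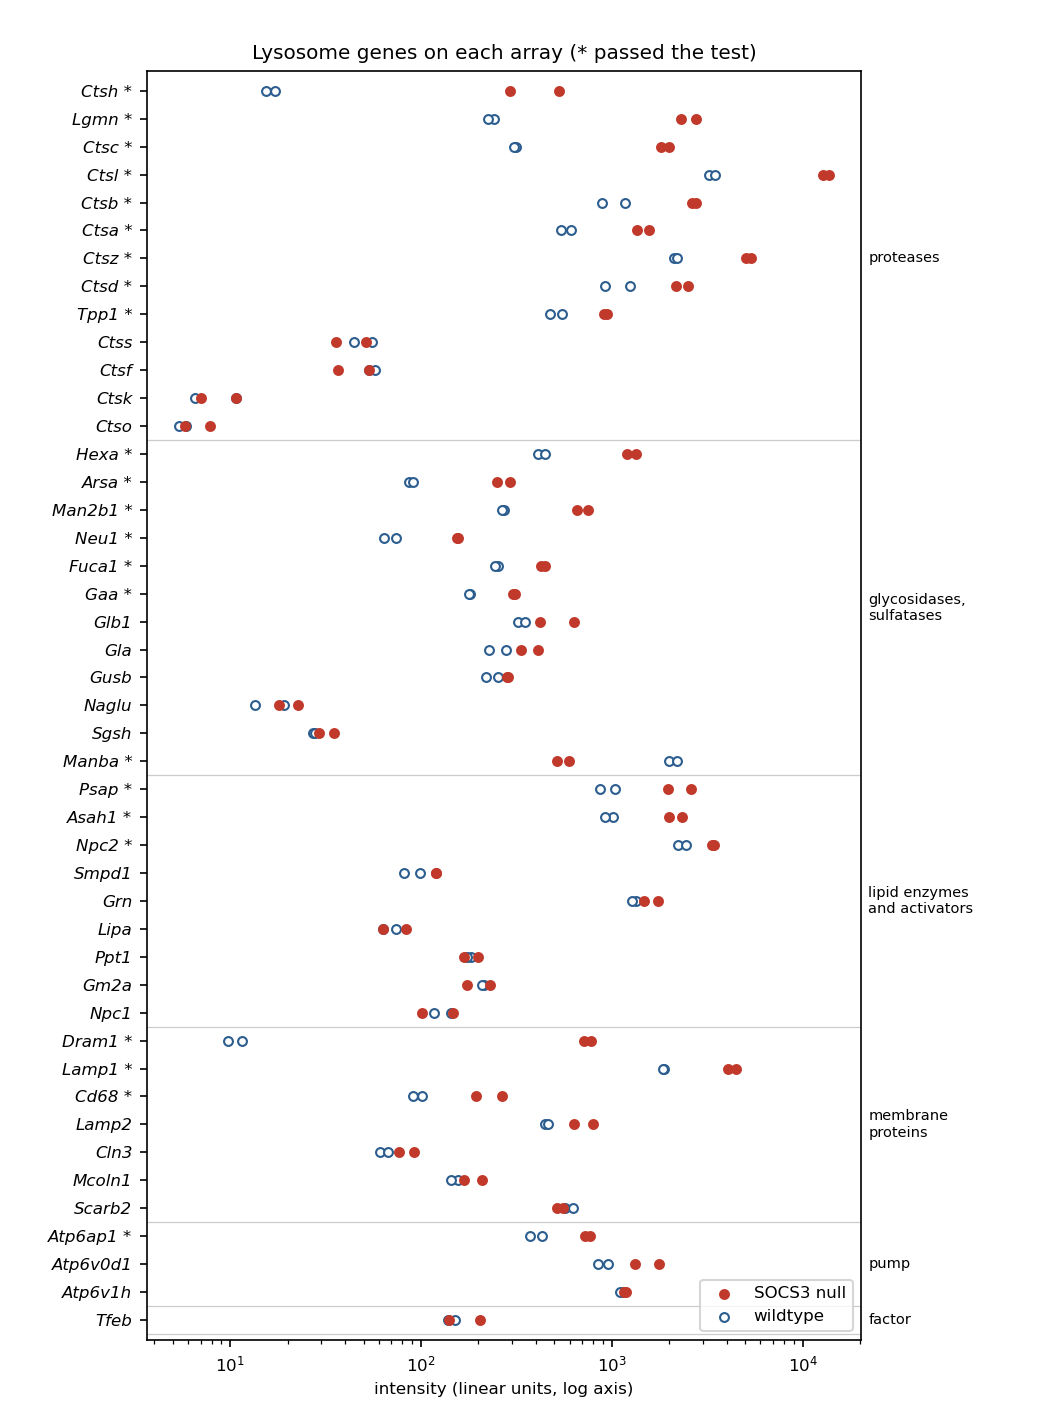
Intensity of each of the 45 lysosome genes with a probe set, on a log axis, on the 2 SOCS3-null arrays (filled points) and the 2 wildtype arrays (open points). Ctsh, Lgmn and Dram1 show the widest gaps between genotypes, Manba lies lower in SOCS3-null cells, and points of different genes are not comparable as amounts.

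Among glycosidases and sulfatases 6 of 12 rose, 1 fell and 5 did not pass, with a median change of 0.66. Of all genes tested 13.1% rose and 9.55% fell. Hexa, the alpha subunit of the hexosaminidase that splits ganglioside GM2, measured 1343 and 1206 in SOCS3-null cells and 411 and 446 in wildtype cells, a change of 1.54 (SE 0.10, adjusted p = 0.00702). Arsa, the sulfatase that acts on sulfatide, measured 250 and 294 in SOCS3-null cells and 87.0 and 91.3 in wildtype cells, a change of 1.45 (SE 0.11, adjusted p = 0.00789). In both genes the SOCS3-null arrays were about equally high and well clear of the wildtype arrays. Neu1 encodes the sialidase that works in a complex with cathepsin A (Ctsa) and beta-galactosidase (Glb1). Its values were 155 and 157 in SOCS3-null cells, against 63.9 and 73.8 in wildtype cells, a change of 1.02 (SE 0.10, adjusted p = 0.0102). Ctsa measured 1565 and 1356 in SOCS3-null cells and 541 and 614 in wildtype cells, a change of 1.32 (SE 0.12, adjusted p = 0.01). Glb1 measured 419 and 637 in SOCS3-null cells and 323 and 350 in wildtype cells. Glb1 was thus higher on both SOCS3-null arrays, but these lay far apart, and its change of 0.60 (interval -0.04 to 1.23) did not pass with an adjusted p of 0.146.

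The 2 mannosidases of the set changed in opposite directions. Man2b1, the lysosomal alpha-mannosidase, had 746 and 654 in SOCS3-null cells and 273 and 265 in wildtype cells, a rise of 1.33 (SE 0.10, adjusted p = 0.00789). Manba, the beta-mannosidase that removes the last mannose in the breakdown of N-linked glycans, had 513 and 600 in SOCS3-null cells and 1990 and 2207 in wildtype cells. Manba was therefore low on both SOCS3-null arrays, with wildtype 3.77 times higher on the linear scale. Its change was -1.89 (SE 0.12, adjusted p = 0.00673), at most -1.78 under every alternative setting, and Manba had 1 probe set on the array. Of the remaining enzymes of this group Fuca1, which removes fucose, rose by 0.77 and Gaa, the acid alpha-glucosidase of glycogen breakdown, by 0.73. The hydrolases Gla, Gusb, Naglu and Sgsh did not pass, with changes of 0.14 to 0.53. Gla, the alpha-galactosidase, had 409 and 333 in SOCS3-null cells and 278 and 228 in wildtype cells, which did not overlap (adjusted p = 0.0945). Naglu, of heparan sulfate breakdown, was dim, and the groups overlapped, with a change of 0.17 (adjusted p = 0.425).

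Of the 9 genes of lipid breakdown, lipid transfer and related activators 3 rose and 6 did not pass, with a median change of 0.29. Of all genes tested 13.1% rose. Psap encodes prosaposin, the precursor of the saposins that present sphingolipids to their hydrolases. It measured 1969 and 2586 in SOCS3-null cells, against 866 and 1035 in wildtype cells, a change of 1.24 (SE 0.18, adjusted p = 0.0228; 0.0723 without the filter). Asah1, acid ceramidase, measured 1987 and 2318 in SOCS3-null cells and 1012 and 922 in wildtype cells, a change of 1.14 (SE 0.12, adjusted p = 0.0118). Both SOCS3-null arrays exceeded both wildtype arrays in these genes. Npc2 and Npc1 hand cholesterol from the lumen to the membrane. Npc2, the soluble carrier, had 3329 and 3444 in SOCS3-null cells and 2213 and 2440 in wildtype cells. Its change of 0.54 (SE 0.09, adjusted p = 0.03) was the smallest among the genes that rose, and as the mean of its probe sets it was 0.30 and did not pass (adjusted p = 0.134). Npc1, the membrane transporter, had 146 and 102 in SOCS3-null cells and 144 and 117 in wildtype cells, overlapping groups with a change of -0.08 (interval -0.66 to 0.50).

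Gm2a, the activator protein that serves the enzyme of Hexa, had 174 and 231 in SOCS3-null cells and 213 and 209 in wildtype cells, a change of -0.07 (interval -0.51 to 0.37). Lipa, the acid lipase that frees cholesterol from its esters, had a difference of 0.07 (interval -0.37 to 0.50) and Ppt1, which removes palmitate from proteins, one of 0.04 (interval -0.27 to 0.34). Smpd1, acid sphingomyelinase, had 119 and 119 in SOCS3-null cells and 81.8 and 99.0 in wildtype cells, a change of 0.35 that did not pass (adjusted p = 0.105). Grn, the precursor of the lysosomal granulins, had 1473 and 1742 in SOCS3-null cells and 1331 and 1279 in wildtype cells, a change of 0.29 (adjusted p = 0.157), and passed as the mean of its probe sets (0.41, adjusted p = 0.0451). In Smpd1 and Grn the groups did not overlap, while in Gm2a, Lipa and Ppt1 they did.

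**Figure D3:**
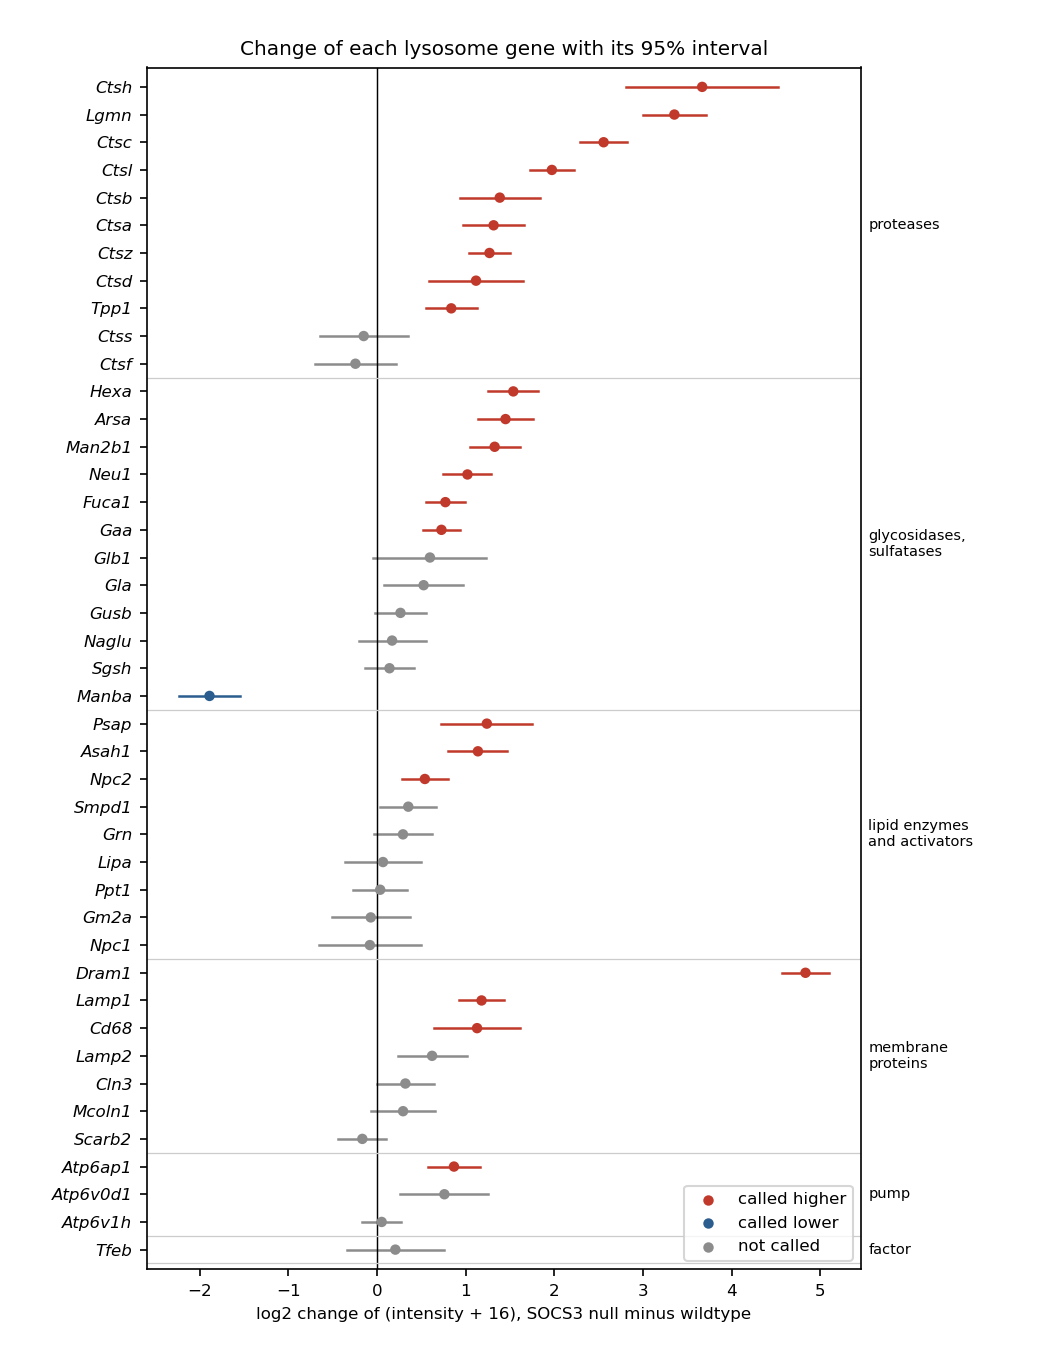
Log2 change of each of the 43 lysosome genes tested, SOCS3 null minus wildtype, with its 95% interval from limma; points are coloured by whether the gene was called higher, called lower or not called. Of the 43, 22 are called higher, from 0.54 for Npc2 to 4.83 for Dram1, and Manba alone is called lower.

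Of 7 membrane proteins tested 3 rose and 4 did not pass, where 13.1% of all genes tested rose. Dram1, a lysosomal membrane protein induced by p53 and linked to autophagy, measured 712 and 774 in SOCS3-null cells, against 11.5 and 9.77 in wildtype cells. Its change of 4.83 (SE 0.09, adjusted p = 0.00357) was the largest of the 43, and the wildtype values lay below the array medians, so that it ran from 3.43 to 6.00 over the alternative settings. The wildtype mean of Dram1 on the log2 scale was 4.74, just above the filter floor of 4.72. Lamp1, an abundant glycoprotein of the lysosomal wall, measured 4043 and 4446 in SOCS3-null cells and 1866 and 1860.5 in wildtype cells, a change of 1.18 (SE 0.09, adjusted p = 0.00788). Its relative Lamp2 measured 631 and 793 in SOCS3-null cells and 447 and 462 in wildtype cells. Lamp2 thus lay higher on both SOCS3-null arrays, and its change of 0.62 (SE 0.14) missed the threshold with an adjusted p of 0.0507. It passed under 5 of the alternative settings, at adjusted p of 0.0188 to 0.048.

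Cd68, a relative of the LAMP proteins known from macrophages, had 266 and 195 in SOCS3-null cells and 101 and 90.4 in wildtype cells. It rose by 1.13 (SE 0.17, adjusted p = 0.0246; 0.0754 without the filter). Of the 11 macrophage markers tested 1 rose and 10 had a positive difference, where 13.1% of all genes rose and 48.9% had a positive change. The part of macrophages in the Cd68 value was not tested. Mcoln1, the calcium channel of the lysosome, had 169 and 209 in SOCS3-null cells and 156 and 145 in wildtype cells, a change of 0.29 (interval -0.07 to 0.66). Cln3, a membrane protein lost in a childhood form of neuronal lipid storage disease, had a difference of 0.32 that did not pass (interval -0.00 to 0.64). Scarb2, the receptor that carries glucocerebrosidase to lysosomes, had 552 and 513 in SOCS3-null cells and 570 and 629 in wildtype cells, a change of -0.17 (interval -0.44 to 0.11). It was, after Manba, the other gene with both SOCS3-null arrays below both wildtype arrays.

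The proton pump was represented by 3 genes, all with a positive change. Atp6ap1, an accessory subunit, had 765 and 725 in SOCS3-null cells and 374 and 430 in wildtype cells, a change of 0.87 (SE 0.11, adjusted p = 0.0156). Atp6v0d1, of the membrane sector, had 1775 and 1326 in SOCS3-null cells and 951 and 850 in wildtype cells. Its change of 0.76 (SE 0.18) missed the threshold with an adjusted p of 0.0549 and passed under 4 of the alternative settings. Atp6v1h, of the cytosolic sector, had 1153 and 1183 in SOCS3-null cells and 1148 and 1103 in wildtype cells, a change of 0.05 (interval -0.17 to 0.27). Of 16 other subunits of the pump tested 4 rose, or 25%, and none fell, where 13.1% of all genes tested rose. Those that rose were Tcirg1 (1.19), Atp6v0b (1.02), Atp6v0a1 (0.99) and Atp6v1a (0.80). Tcirg1, Atp6v0b and Atp6v0a1 belong to the membrane sector and Atp6v1a to the cytosolic one.

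Tfeb, the transcription factor that drives lysosomal genes through the CLEAR element, had 203 and 140 in SOCS3-null cells and 138 and 151 in wildtype cells. The groups overlapped, and the change was 0.21 (SE 0.19, interval -0.34 to 0.75, adjusted p = 0.5). Among 19 tested genes of the MiT family and of nutrient sensing at the lysosome 1 rose, none fell and 18 did not pass, with a median change of -0.13. Of all genes tested 13.1% rose and 9.55% fell. The gene counted as higher was Tfec, a relative of Tfeb, with 134 and 117 in SOCS3-null cells and 6.40 and 6.12 in wildtype cells. Tfec was below the array medians in wildtype cells, with a log2 mean of 4.48 there, and was tested only because the SOCS3-null arrays lifted its mean over the filter floor, so that it had to differ and its call adds nothing to these values. Mitf, a further member of the family, had 115 and 164 in SOCS3-null cells and 320 and 236 in wildtype cells, a change of -0.92 that did not pass (adjusted p = 0.0674). Array data on RNA say nothing of where TFEB protein lies in the cell.

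Lysosomal genes outside the set were measured too. Of 23 other lysosomal enzymes tested 5 rose, or 21.7%, and none fell, with a median change of 0.32, where 13.1% of all genes rose. Pla2g15, a lysosomal phospholipase, rose by 2.00 with 285 and 264 in SOCS3-null cells and 64.4 and 49.3 in wildtype cells. Ifi30, a reductase of protein disulfides in lysosomes, rose by 1.43, the glycoprotein Creg1 by 0.95 and the phospholipase-like Plbd2 by 0.75, and Aga, which splits sugar from asparagine, by 0.71. Of 25 other lysosomal membrane proteins 5 rose, or 20%, and none fell, with a median of 0.40. The ion channel Tpcn1 rose by 1.32, Sidt2 by 1.28, the protease Sppl2a by 0.65, the fusion protein Vamp7 by 0.59 and Tmem106b by 0.45. In 22 of these 25 genes, or 88%, the change was positive, where 48.9% of all genes had a positive change.

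For genes that sort proteins to the lysosome the share that rose was close to that of all genes, 4 of 28 or 14.3%, with 1 lower and a median of 0.32. The adaptor subunits Ap1s1 and Ap1m1, of the AP-1 coat, rose by 1.31 and 1.07, the late endosome GTPase Rab7 by 0.45 and the AP-3 subunit Ap3d1 by 0.39. Sort1, the sorting receptor sortilin, had 28.6 and 19.0 in SOCS3-null cells and 68.1 and 71.1 in wildtype cells, a change of -1.11 (SE 0.15, adjusted p = 0.0183). Of 27 autophagy genes 6 rose, or 22.2%, and 1 fell, with a median of 0.05, where 13.1% of all genes tested rose and 9.55% fell. The change was positive in 55.6% of the autophagy genes, against 48.9% of all genes. Gabarapl2, of the family that coats autophagosomes, rose by 1.26, the phosphoinositide-binding Wipi1 by 1.12, Vmp1 by 0.81 and Gabarap by 0.76, and the gene that fell was the lipid kinase Pik3c3, by -0.38. The endocytic receptors of the visceral endoderm, whose cargo ends in lysosomes, had 6 of 7 higher, or 85.7%, among them Dab2 by 4.68 and the receptor chaperone Lrpap1 by 3.70. Cubn, Lrp2, Amn and Dab2 are also among the 18 endoderm markers above, so these counts are not separate observations. Cubn had 3228 and 3680 in SOCS3-null cells and 16.5 and 8.28 in wildtype cells, and Amn had 1043 and 779 in SOCS3-null cells and 19.4 and 18.1 in wildtype cells. The wildtype values of both lay near or below the array medians, so the size of their rise depends on the pseudocount.

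**Figure D4:**
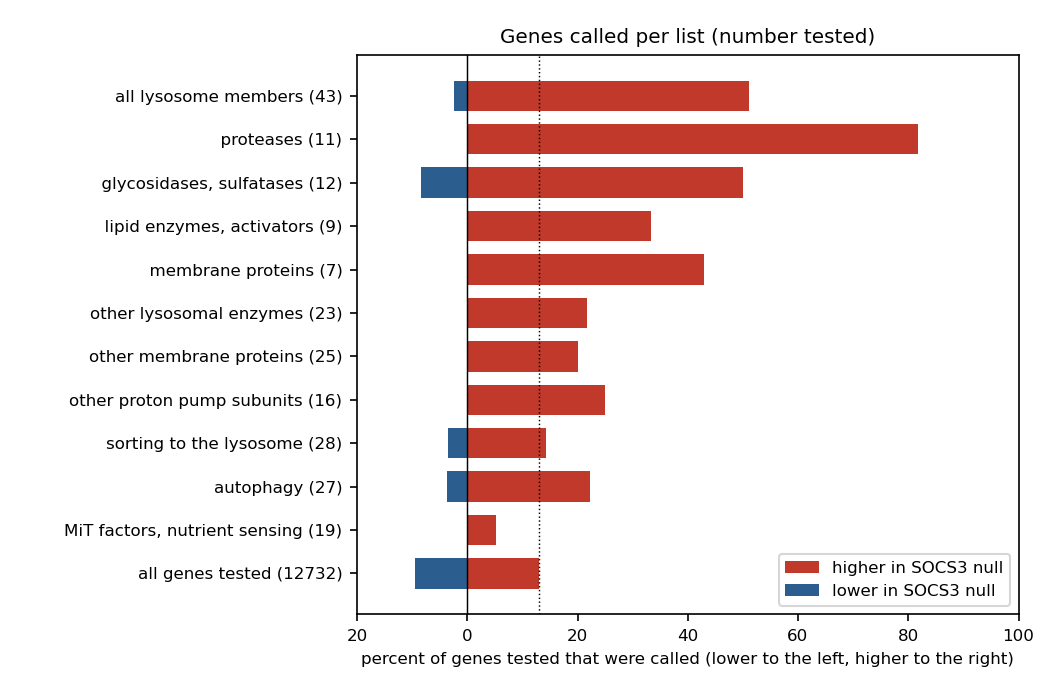
Percent of tested genes called higher (to the right) or lower (to the left) in SOCS3-null cells, for the lysosome genes, their groups and the related lists, with the number tested in brackets; the dotted line marks the 13.1% of all genes called higher. Proteases reach 81.8%, lipid enzymes and activators 33.3%, and MiT and nutrient sensing genes 5.26%. The 5.26% is Tfec alone, which was tested only because the SOCS3-null arrays lifted its mean over the filter floor, so its call adds nothing.

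Further probe sets of the same genes were read too. The set had 94 probe sets on the array, of which 80 were tested, and 23 genes had more than 1 tested. Of 37 further probe sets 2, of Ctsh and Ctsl, reached the filter floor only through the SOCS3-null arrays and are left out of the counts that follow. Of the other 35, 7 were called higher and none lower, where 8.55% of all probe sets tested were called higher and 7.3% lower. Of the 9 genes that rose and had such a further probe set, 5 had a further one called: Ctsb, Ctsz, Psap, Gaa and Tpp1. Ctsh on its second probe set measured 65.1 and 144 in SOCS3-null cells and 6.63 and 6.59 in wildtype cells, the wildtype values below the array medians. The 3 probe sets of Ctsz changed by 1.27, 1.33 and 1.25. Of 16 further probe sets of genes that rose 15 had a positive difference and 6 were called. A dim further probe set of Ctsa had a difference of 0.04 that did not pass. The exception in sign was a dim probe set of Npc2, with a change of -0.15. Mcoln1 passed on a further probe set only, with 79.0 and 91.4 in SOCS3-null cells and 45.1 and 54.2 in wildtype cells, a change of 0.62 (adjusted p = 0.049 over all probe sets).

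**Figure D5:**
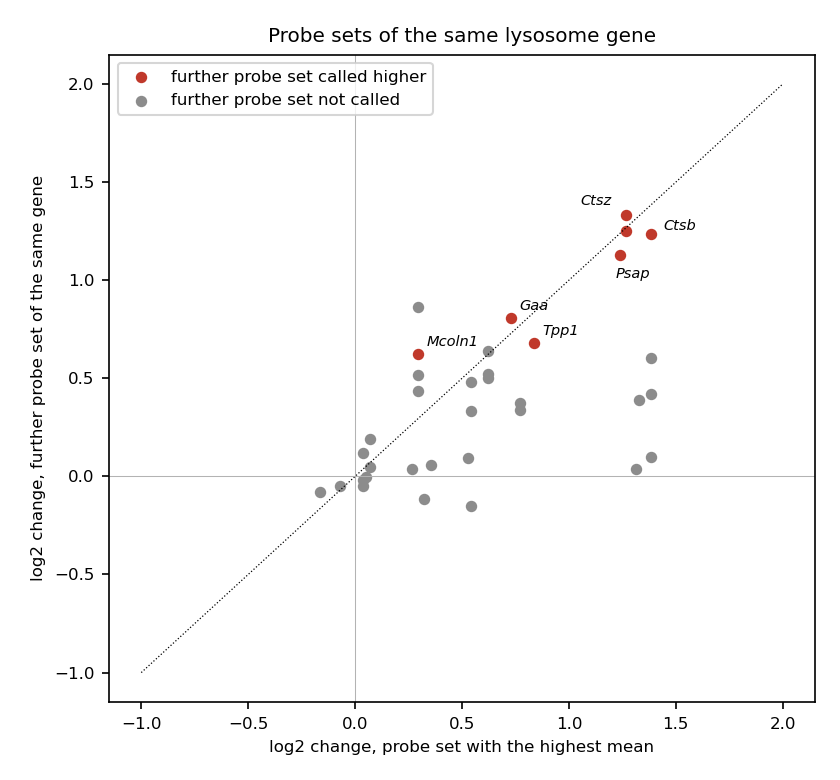
Log2 change of 35 further probe sets (vertical axis) against that of the brightest probe set of the same lysosome gene (horizontal axis), with the dotted line marking equal changes. The 7 further probe sets called higher belong to the named genes, and those of Ctsz, at 1.33 and 1.25, lie close to the line at 1.27.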

How the data were processed

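Expression was measured on 4 arrays of 45101 probe sets, with groups and replicate numbers from the labels. The deposited values are linear intensity values; how the authors summarised and normalized them is not given in the sources used here. All were above 0 and array medians of log2 values differed by at most 0.011, so they were not normalized again, which leaves changes in total RNA per cell unseen. Symbols came from GEO's platform annotation, matched by gene ID to RefSeq GRCm38.p6 (34741 of 34945 probe sets with 1 symbol); 932 with several symbols and 9160 with none were not named, and 64 controls were left out. Rows whose mean of log2(intensity + 16) reached the 40th percentile were kept, 27022 probe sets and 12732 genes. Limma 3.58.1 in R 4.3.3 was fitted with lmFit and eBayes, genotype as the only term, two-sided, with Benjamini-Hochberg adjustment over all genes; intervals are 95% on the log2 scale. The procedure was tested on simulated data. Levels are compared within a probe set only. The number of arrays limits the precision. Every lysosome gene could be named, and Socs3 as the target. From each other list the 4 genes with the smallest p could be named, and whole marker lists. Sox2, Fgf4, Laptm5, Lyz2, Itgam, Aif1, Gata4, Sox17, Foxa2, Hnf4a, Ttr, Lrp2, Aga, Tmem106b, Ap3d1, Pik3c3 and the placental cathepsins were named after their values were seen. The genes and lists were chosen with earlier results of these data known. Alternatives were other pseudocounts, normalizations, filters, variance moderation, replicate blocks, probe set handling and leaving out each array. Figures used matplotlib 3.10.9.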

Additional observations from a re-analysis of the deposited data

How the results depend on the processing

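Under the 12 alternatives that kept all 4 arrays, 18 to 24 lysosome genes rose and 1 fell, against 22 and 1 as reported, and all 23 called genes kept their sign under all 16 alternatives; 18 of the 23 kept their call under those 12. The median change of 0.73 was 0.77 and 0.61 with pseudocounts of 1 and 64, 0.68 after quantile normalization, 0.62 without the filter, 0.76 with the filter at the 60th percentile and 0.60 as the mean of the probe sets of a gene. With an array left out the median was 0.68 to 0.74 and 0 to 0 genes rose or fell, since limma called 0 of all genes with fewer arrays; without wildtype replicate 1, wildtype replicate 2, SOCS3 null replicate 1 and SOCS3 null replicate 2 there were 23, 22, 28 and 25 lysosome genes with a positive change and an unadjusted p under 0.05, as had 13.3%, 13.6%, 20.1% and 19.8% of all genes, with the lone array assumed to vary like the other genotype. Signs turned for 6 genes that were not called: Ppt1 was -0.015 after quantile normalization, and with an array left out Ppt1 ran from -0.069 to 0.14, Lipa from -0.094 to 0.23, Npc1 from -0.31 to 0.15, Gm2a from -0.26 to 0.12, Tfeb from -0.036 to 0.45 and Ctss from -0.34 to 0.041. With the replicate number as a block 21 genes rose and 1 fell, and Ctsd and Npc2 did not pass (adjusted p = 0.0546 and 0.0633); the labels do not say that the numbers pair the arrays. Deviations of same-numbered arrays correlated at -0.118 across probe sets, and with the pairing crossed, chosen after seeing the data, 22 genes rose and 1 fell. The cause of these differences was not tested.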
